A study of Mus musculus with 2 samples.

Results

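Klrg1-negative regulatory T cells (Treg cells) from MB49 tumours were chosen by their UMI counts of Foxp3, Klrg1, Cd8a and Cd8b1, as barcodes with at least 2 Foxp3 UMIs, 0 UMIs of Klrg1, 0 UMIs of Cd8a and Cd8b1 together, and at most 25000 UMIs, after barcodes with fewer than 500 genes or more than 10% mitochondrial UMIs had been left out. A UMI (unique molecular identifier) marks 1 captured RNA molecule. This rule gave 206 cells, 82 from the female and 124 from the male library, of 6987 barcodes kept and 7366 in all. MB49 is a mouse bladder carcinoma line. It was grown as a transplant in female and in male C57BL/6J mice aged 12 to 14 weeks, and tumours were taken at day 14. Viable CD4+ T cells sorted from the digested tumours gave 1 droplet library per sex, made with a kit that reads the 5′ end of transcripts. How many mice were pooled per library is not given in the sources used here. The 277 Treg cells of the same gate that had a Klrg1 UMI (110 female, 167 male) and 456 Foxp3-negative Cd4 cells (237 female, 219 male; at least 1 UMI each of Cd4 and Cd3e and none of Foxp3, Cd8a or Cd8b1) served for comparison.

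Treg cells restrain other T cells, and the transcription factor Foxp3 holds their programme in place. They express the high-affinity IL-2 receptor but make little IL-2 themselves, so they draw on the IL-2 of neighbouring helper cells. They act through CTLA-4, which removes costimulatory ligands from antigen-presenting cells, through activation of latent TGF-β, through cytokines such as IL-10, and through enzymes that make adenosine. In tumours they often carry receptors of the TNF family such as OX40, 4-1BB and GITR. KLRG1, a lectin-like inhibitory receptor, marks differentiated effector Treg cells of tissues, and cells without it include those closer to the circulating, lymphoid form.

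The libraries held 3658 female and 3708 male barcodes, of 10000 to 20000 cells loaded per sample. Although CD4+ cells had been sorted, 1840 female and 1675 male barcodes had at least 2 Cd8 UMIs and none of Cd4 or Foxp3. They were counted among kept barcodes with at most 25000 UMIs, and none of them entered a class here. Median depth was 5814 (female) and 5582 (male) UMIs per Klrg1-negative Treg cell, 7473 and 6576 per Klrg1-positive Treg cell, and 5214 and 5322 per Foxp3-negative Cd4 cell. Libraries shared 16 barcodes, of which 1 was a Klrg1-negative Treg cell in either. Of the other cell types checked, myeloid genes summed to 605 (female) and 14.6 CPM (male) in Klrg1-negative Treg cells (5 of 8 genes above 0, with C1qa, C1qc and Adgre1 at 0). All 305 female Lyz2 UMIs were in 1 cell. Neutrophil markers were at 0 in these cells. CPM is the number of UMIs per 1000000 UMIs of the cells summed in a class and library.

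The rule's own genes are given as a description only. Foxp3 had a median of 4 UMIs per cell in each library, and the cells numbered 44 at 2 UMIs, just inside the limit. The 42 cells with 1 Foxp3 UMI that met every other criterion had 1173 CPM of Ikzf2 and 488 CPM of Il2ra, and the 44 cells at 2 UMIs had 1419 CPM of Ikzf2 and 357 CPM of Il2ra. Outside the Klrg1 limit, 60 Treg cells had a single Klrg1 UMI, and 12 cells that met the other criteria had 1 Cd8 UMI. Cd4 itself was seen in 47 of 82 female and 66 of 124 male cells. Klrg1-negative cells made up 42.7% of the 192 female Treg cells (exact 95% interval 35.6% to 50.0%) and 42.6% of the 291 male Treg cells (36.9% to 48.5%). Those intervals cover counting error only. A cell without Klrg1 RNA and one whose Klrg1 RNA was not sampled cannot be told apart, and the Klrg1-positive cells were deeper. The same limit holds for Foxp3, so the Foxp3-negative Cd4 class may hold Treg cells whose Foxp3 RNA was not sampled.

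The label was checked on the 4 markers that the rule did not use. Ikzf2, which encodes the Foxp3 partner Helios, had 1040.3 and 1040.3 CPM (female and male library, an order kept below) in Klrg1-negative Treg cells, against 86.7 and 157 CPM in Foxp3-negative Cd4 cells. Il2ra, the α chain of the IL-2 receptor, had 547 and 412 CPM in the Treg cells and 64.5 and 61.1 CPM in the Foxp3-negative cells. Izumo1r, which encodes the folate receptor 4 that marks Treg cells, had 244 and 345 CPM, against 74.6 and 97.3 CPM. Tnfrsf4, which encodes OX40, had 2316 and 2531 CPM, against 976 and 904 CPM. In all 4 genes both Treg values lay above both Foxp3-negative values. The share of all genes tested with values as separate was not counted, here or below, so separation describes these genes only. Of the 206 Treg cells, 170 (82.5%) had UMIs of at least 3 of the 4 markers, against 59 of 456 (12.9%) Foxp3-negative cells and 260 of 277 (93.9%) Klrg1-positive Treg cells, whose median depth was higher.

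**Figure D1:**
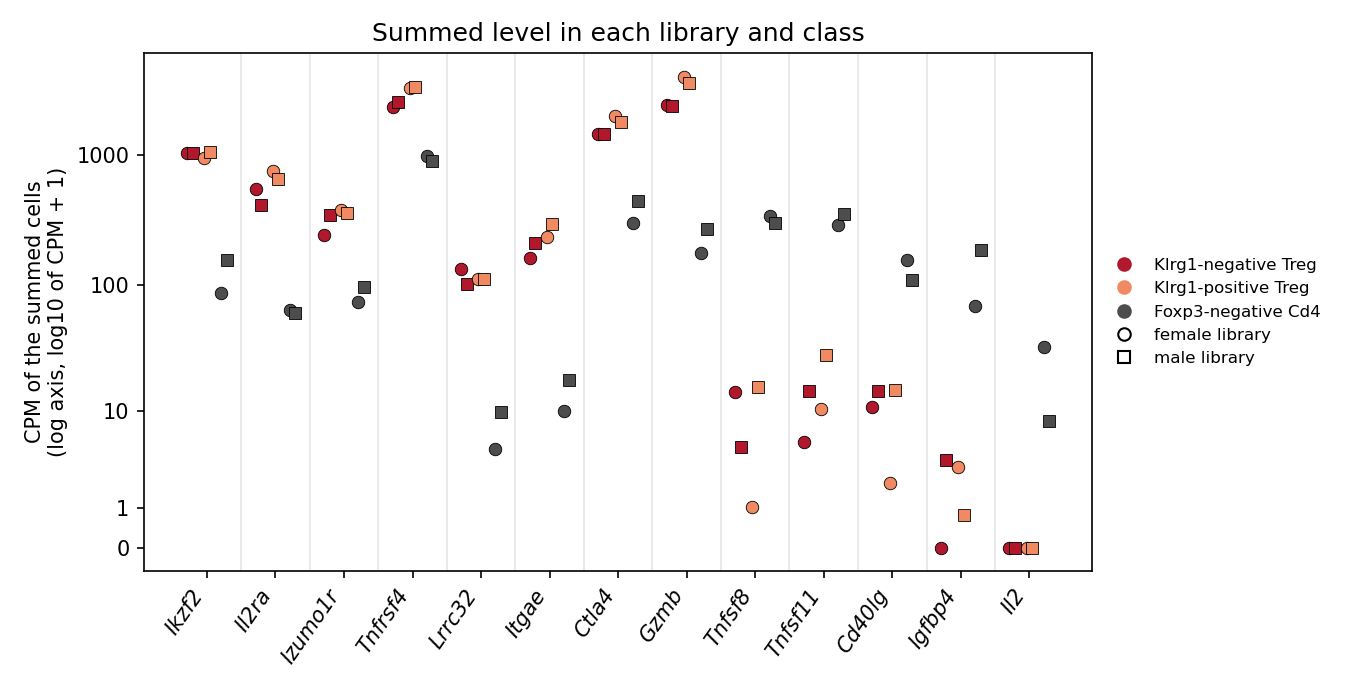
Summed level (CPM, log10 of CPM + 1) of 13 genes in Klrg1-negative Treg, Klrg1-positive Treg and Foxp3-negative Cd4 cells, 1 point per library (circles female, squares male). Ikzf2 to Gzmb lie above the Foxp3-negative values in both Treg classes, and Tnfsf8 to Il2 lie below them.

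Against Foxp3-negative Cd4 cells, 672 of 8048 genes tested were higher in Klrg1-negative Treg cells (8.35%) and 640 were lower (7.95%) at an adjusted p under 0.05 in edgeR's quasi-likelihood test on the 4 summed profiles, with the library as a block. Of these, 642 higher (7.98%) and 603 lower (7.49%) genes moved the same way in each library and had at most 25% of their UMIs in 1 cell. With only 2 libraries, 1 per sex, edgeR pooled its estimate of spread over all genes, and DESeq2 called 120 higher and 147 lower. Without TMM scaling the medians shifted up by 0.10 (log2) and edgeR called 844 higher and 487 lower, so the share of higher calls was 63.4% in place of 51.2%.

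Among genes of Treg identity, 14 of 16 measured rose and none fell, with a median log2 fold change of 2.06 against -0.000665 over all genes tested. DESeq2 called the same number. The largest difference in this group was in Lrrc32, which encodes GARP, the surface anchor of latent TGF-β: 133 and 102 CPM in the Treg cells and 4.70 and 9.81 CPM in the Foxp3-negative cells (log2 fold change 3.92, adjusted p = 1.90e-39). Itgae, the CD103 integrin that binds E-cadherin, had 164 and 212 CPM, against 10.1 and 18.1 CPM (log2 fold change 3.64, adjusted p = 1.60e-56). Ikzf2 rose by 3.03 on the log2 scale, Il2ra by 2.83, Cd81 by 2.80, Swap70 by 2.44 and Ikzf4, which encodes the Helios relative Eos, by 2.40. Nrp1 was the member with the lowest value, at 51.0 and 32.9 CPM in Treg cells and 49.0 and 65.7 CPM in Foxp3-negative cells, and did not pass the test (adjusted p = 0.0776). Il2rb did not pass either (adjusted p = 0.0616).

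Receptors of the TNF family and of costimulation had 9 of 13 measured members higher and 1 lower, or 6 and 0 in DESeq2. Tnfrsf9, which encodes 4-1BB, had 1807 and 1934 CPM in Klrg1-negative Treg cells and 374 and 404 CPM in Foxp3-negative cells (log2 fold change 2.17, adjusted p = 1.59e-54). Both Treg values lay far above both Foxp3-negative values. Tnfrsf18 (GITR) rose by 1.39, Cd27 by 1.79, Tnfrsf13b (TACI) by 1.98 and Icos by 1.08. Cd226, an activating receptor that shares its ligands with Tigit, fell, at 21.9 and 11.0 CPM in Treg cells and 50.4 and 33.2 CPM in Foxp3-negative cells (log2 fold change -1.47, adjusted p = 2.15e-04). Tigit itself, the inhibitory partner in that pair, rose (703 and 792 CPM in Treg cells, 304 and 315 CPM in Foxp3-negative cells, adjusted p = 4.39e-15).

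Suppressive mediators rose in 12 of 15 measured members, and none fell. DESeq2 called 5. The lists share genes, so their counts are not separate evidence. Lrrc32, for example, is in the Treg identity, suppressive and TGF-β lists, and Gzmb is in the suppressive and cytotoxic lists. Gzmb, the serine protease granzyme B, had 2403 and 2356 CPM in Treg cells, against 179 and 271 CPM (log2 fold change 3.33, adjusted p = 4.63e-113). Ctla4 had 1458 and 1446 CPM, against 301 and 449 CPM (log2 fold change 1.88, adjusted p = 1.30e-40). Il10 had 71.1 and 81.6 CPM, against 12.8 and 23.4 CPM (log2 fold change 1.98, adjusted p = 6.93e-12). The values of these 3 genes, which were named for their large fold changes, did not overlap between the classes. Itgb8, the integrin chain that releases active TGF-β, rose by 1.94, and Entpd1 (CD39, which breaks down ATP) by 1.40. Il1rn, the secreted IL-1 antagonist, had 21.9 and 29.2 CPM, against 2.02 and 1.51 CPM, with more than 25% of its Treg UMIs in 1 cell. Areg, a growth factor of tissue repair, passed the test (log2 fold change 0.95, adjusted p = 6.35e-08), at 169 and 741 CPM in Treg cells, against 198 and 180.4 CPM. Of its 294 female Foxp3-negative UMIs, 217 were in 1 cell. Without the cell with the most Areg in each class and library the values were 144 and 569 CPM in Treg cells, against 52.2 and 112 CPM, so that Treg cells stood higher in both libraries. Il1r2, the decoy IL-1 receptor, was at 115 and 353 CPM in Treg cells and 176 and 169 CPM in Foxp3-negative cells and did not pass (adjusted p = 0.355).

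The TGF-β list had 4 of 15 members higher and 2 lower, or 2 and 1 in DESeq2. The 4 higher members were Lrrc32, Itgae, Itgb8 and Nrros, which hold, bind or release latent TGF-β or, in the case of Itgae, are induced by it. The 2 lower members were receptors: Tgfbr2 had 87.5 and 71.9 CPM in Treg cells and 202 and 191 CPM in Foxp3-negative cells (log2 fold change -1.41, adjusted p = 3.59e-12), and Tgfbr3 had 5.47 and 0 CPM, against 22.8 and 31.7 CPM (log2 fold change -3.66, adjusted p = 1.34e-07). Tgfb1 and the Smad genes measured did not pass the test.

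**Figure D2:**
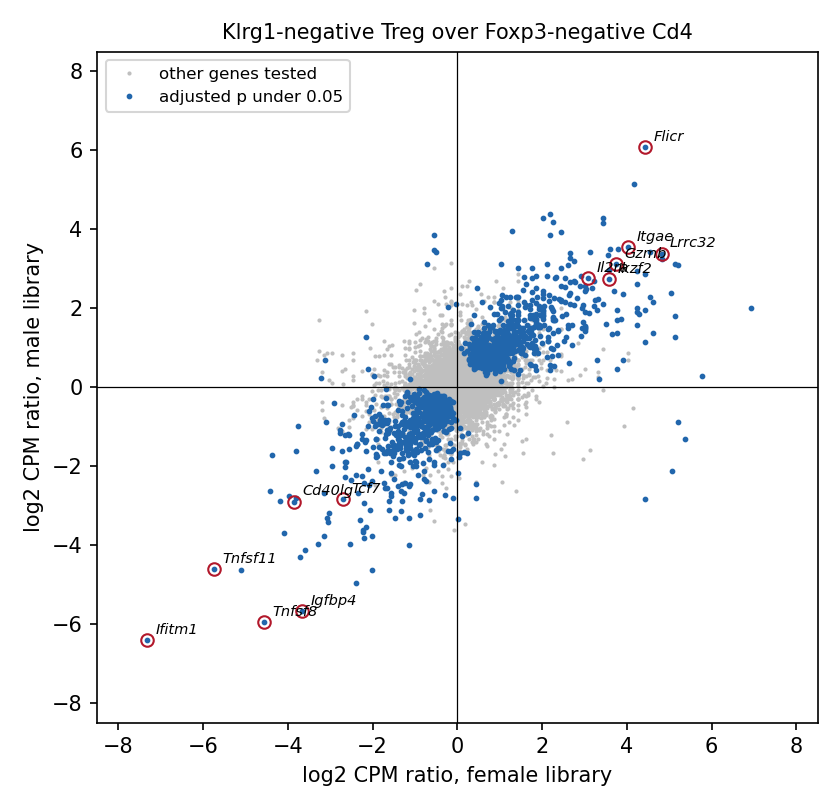
Log2 CPM ratio of Klrg1-negative Treg over Foxp3-negative Cd4 cells for every gene tested, female library on the x axis and male library on the y axis; blue points have an adjusted p under 0.05 (edgeR), circled genes are named, and a class at 0 in a library was set to 3 UMIs. Named genes lie in the upper right or lower left corner, and a few blue points lie where the libraries went opposite ways.

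Helper cytokines and ligands were the list with the lowest median, -3.38 on the log2 scale, or -3.07 with genes at 0 set to their bound. Of 13 measured, 9 fell and 2 rose, and DESeq2 called 4 lower and 1 higher. Tnfsf8 (CD30 ligand) had 14.6 and 4.87 CPM in Klrg1-negative Treg cells and 343 and 304 CPM in Foxp3-negative cells (log2 fold change -5.26, adjusted p = 2.61e-79). Tnfsf11 (RANK ligand) had 5.47 and 14.6 CPM, against 291 and 356 CPM (log2 fold change -5.02, adjusted p = 1.36e-77). Cd40lg, the ligand through which helper cells activate dendritic and B cells, had 10.9 and 14.6 CPM, against 157 and 109 CPM (log2 fold change -3.38, adjusted p = 4.89e-34). All 3 ligands stood apart between the classes in both libraries.

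Il2, the T cell growth factor, had 0 UMIs in Klrg1-negative Treg cells of either library, against 32.9 and 8.30 CPM in Foxp3-negative cells. Set against a floor of 3 UMIs over both libraries, it was at least 9.74-fold lower. On the same floor Il21, Il13 and Csf2 were at least 8.11-fold, 24.0-fold and 9.90-fold lower. These bounds take the Foxp3-negative sums as counted. In these 4 genes more than 25% of the Foxp3-negative UMIs came from 1 cell. Of the Il13 UMIs, 102 of 114 came from 1 female and 29 of 34 from 1 male cell. Without these cells the Foxp3-negative values of Il13 were 8.14 and 3.83 CPM. With all cells, DESeq2 did not call Il13 (adjusted p = 0.628). Ifng was lower as well, at 32.8 and 2.44 CPM, against 173 and 76.2 CPM (log2 fold change -3.07, adjusted p = 2.77e-28). Ltb, which encodes lymphotoxin β, rose (1018 and 1289 CPM in Treg cells and 513 and 669 CPM in Foxp3-negative cells, log2 fold change 0.87), as did Il6st.

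Genes of naive and central memory T cells fell in 9 of 16 measured members and rose in 2, and DESeq2 called 6 and 1. Igfbp4 had 0 and 3.65 CPM in Treg cells and 69.2 and 187 CPM in Foxp3-negative cells (log2 fold change -6.04, adjusted p = 7.06e-51). Its log2 ratio of CPM, from 3 Treg UMIs, was -5.83 over both libraries, with an exact 95% Poisson interval of -8.12 to -4.27. Tcf7, which encodes the memory factor TCF-1, had 41.9 and 47.5 CPM, against 273 and 339.6 CPM (log2 fold change -2.88, adjusted p = 5.49e-43). Ccr7, S1pr1, Klf2 and Bach2, which serve lymph node entry, egress, quiescence and restraint of effector genes, fell by 1.44, 1.04, 0.75 and 1.60 on the log2 scale. Ly6c1 was among the members that rose, with more than 25% of its UMIs in 1 cell. Il7r did not pass the test (297 and 415 CPM in Treg cells, 220.4 and 411 CPM in Foxp3-negative cells, adjusted p = 0.714).

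Th1 and cytotoxic genes were mostly lower. Of 15 Th1 genes, 9 fell and 4 rose; of 13 cytotoxic genes, 10 fell and 2 rose, the 2 being Gzmb and Prf1. DESeq2 called 5 lower and 2 higher of the Th1 genes, and 6 lower and 1 higher of the cytotoxic genes. Il12rb2, the inducible IL-12 receptor chain, had 38.3 and 12.2 CPM in Treg cells and 177 and 65.7 CPM in Foxp3-negative cells (log2 fold change -2.37, adjusted p = 2.60e-20). Gzmk had 3.64 and 2.44 CPM, against 47.7 and 48.3 CPM (log2 fold change -4.08, adjusted p = 2.28e-15), so the granzymes did not move as 1 group. Fasl, the death ligand, had 7.29 and 12.2 CPM, against 115 and 83.0 CPM (log2 fold change -3.32, adjusted p = 4.14e-26). Il12rb1 rose by 1.47, Hopx by 0.98 and Cxcr3 by 0.52.

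Chemokine receptors and homing genes had 11 of 24 measured members higher and 6 lower, or 6 and 5 in DESeq2. Ccr2, the receptor for Ccl2, had 375 and 268 CPM in Treg cells, against 45.7 and 48.3 CPM (log2 fold change 2.66, adjusted p = 4.52e-45). Ccr3, the eotaxin receptor, had 23.7 and 19.5 CPM, against 0.672 and 0 CPM (log2 fold change 5.46, adjusted p = 3.13e-08), where the Foxp3-negative total was 1 UMI. Its log2 ratio of CPM was 5.90 over both libraries, with an exact 95% Poisson interval of 3.30 to 11.25. Ccr8, a receptor known from tumour Treg cells, had 186 and 291 CPM, against 99.4 and 153 CPM (log2 fold change 0.82, adjusted p = 2.17e-05). Cxcr6 went down, with 92.9 and 84.0 CPM in Treg cells and 319 and 152 CPM in Foxp3-negative cells. Integrin chains divided: Itgav and Itgb7 rose by 1.81 and 0.99, and Itga4 and Itgb1 fell by 1.59 and 1.34.

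The effector and tissue Treg list had 11 of 19 members higher and 2 lower, or 5 and 1 in DESeq2. Prdm1 (Blimp-1) rose by 1.28, Maf by 1.30, Nfil3 by 1.46 and Il1rl1, the IL-33 receptor ST2, by 1.66. Id3 and Bhlhe40 were the members that fell. Batf, Irf4, Gata3, Rora and Id2 did not pass the test. Among inhibitory receptors 5 of 11 rose and 4 fell, and DESeq2 called 3 and 1. Lag3 had 302 and 463 CPM in Treg cells and 85.3 and 202 CPM in Foxp3-negative cells, and Havcr2 (TIM-3) had 43.7 and 71.9 CPM, against 13.4 and 26.4 CPM; both rose. Pdcd1, which encodes PD-1, had 65.6 and 136 CPM, against 238 and 220.3 CPM, and fell (log2 fold change -1.27, adjusted p = 7.99e-11), with Cd200, Btla and Cd96.

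Foxp3 partners and opposing factors had 1 of 21 members higher (Ikzf4) and 6 lower (1 and 2 in DESeq2), among them Nfatc1 with 72.9 and 86.5 CPM in Treg cells, against 181 and 159 CPM. Foxp1, Runx1, Cbfb, Stat5a, Stat5b, Stat3 and Ets1 did not pass the test. The NF-κB list had 6 of 18 members higher and 2 lower in edgeR, and 0 higher and 1 lower in DESeq2. Traf3 rose by 0.89 and Bcl3 by 0.69, and the inhibitor Tnfaip3 (A20) fell by 0.64. Of 14 IL-2 and STAT5 targets, 6 rose and 3 fell (3 and 2 in DESeq2). Socs2 had 94.7 and 49.9 CPM, against 12.1 and 15.8 CPM (log2 fold change 2.24, adjusted p = 7.80e-13), and Bcl2, the survival factor, had 9.11 and 4.87 CPM in Treg cells, against 53.1 and 76.2 CPM (log2 fold change -3.40, adjusted p = 3.24e-18). Il21r fell, and Il2ra, Il4ra and Crlf2 rose, among the 7 common γ-chain receptor genes measured.

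Of 17 glycolysis and hypoxia genes, 7 rose and none fell (3 and 0 in DESeq2). Bnip3 had 159 and 177 CPM in Treg cells, against 16.1 and 45.3 CPM (log2 fold change 2.38, adjusted p = 1.70e-30), and Slc16a3, the lactate exporter, had 282 and 194 CPM, against 91.4 and 46.0 CPM. Pkm rose by 0.62, while Ldha, Eno1 and Hif1a did not pass the test. Of 12 type I interferon genes, 4 rose (2 in DESeq2), among them Oas1a by 2.04, Zbp1 by 0.74 and Bst2 by 0.63. None of the 15 cell cycle genes measured passed the test, with a median of 0.29, and 1 of 14 lipid genes did (Fabp5, 1.20). TCR-induced genes had 3 of 18 higher and 6 lower (2 and 4 in DESeq2), with Dusp4 at 1.18 and Dusp2 at -1.30, both phosphatases that curb MAP kinases. Of 20 genes that tissue dissociation induces, 12 were lower in the Treg cells (4 in DESeq2) and none was higher, with Atf3 (32.9% of the UMIs of its higher class in 1 cell) and Hspa1a the lowest. These values moved with the gene groups above, and their part in them was not tested.

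**Figure D3:**
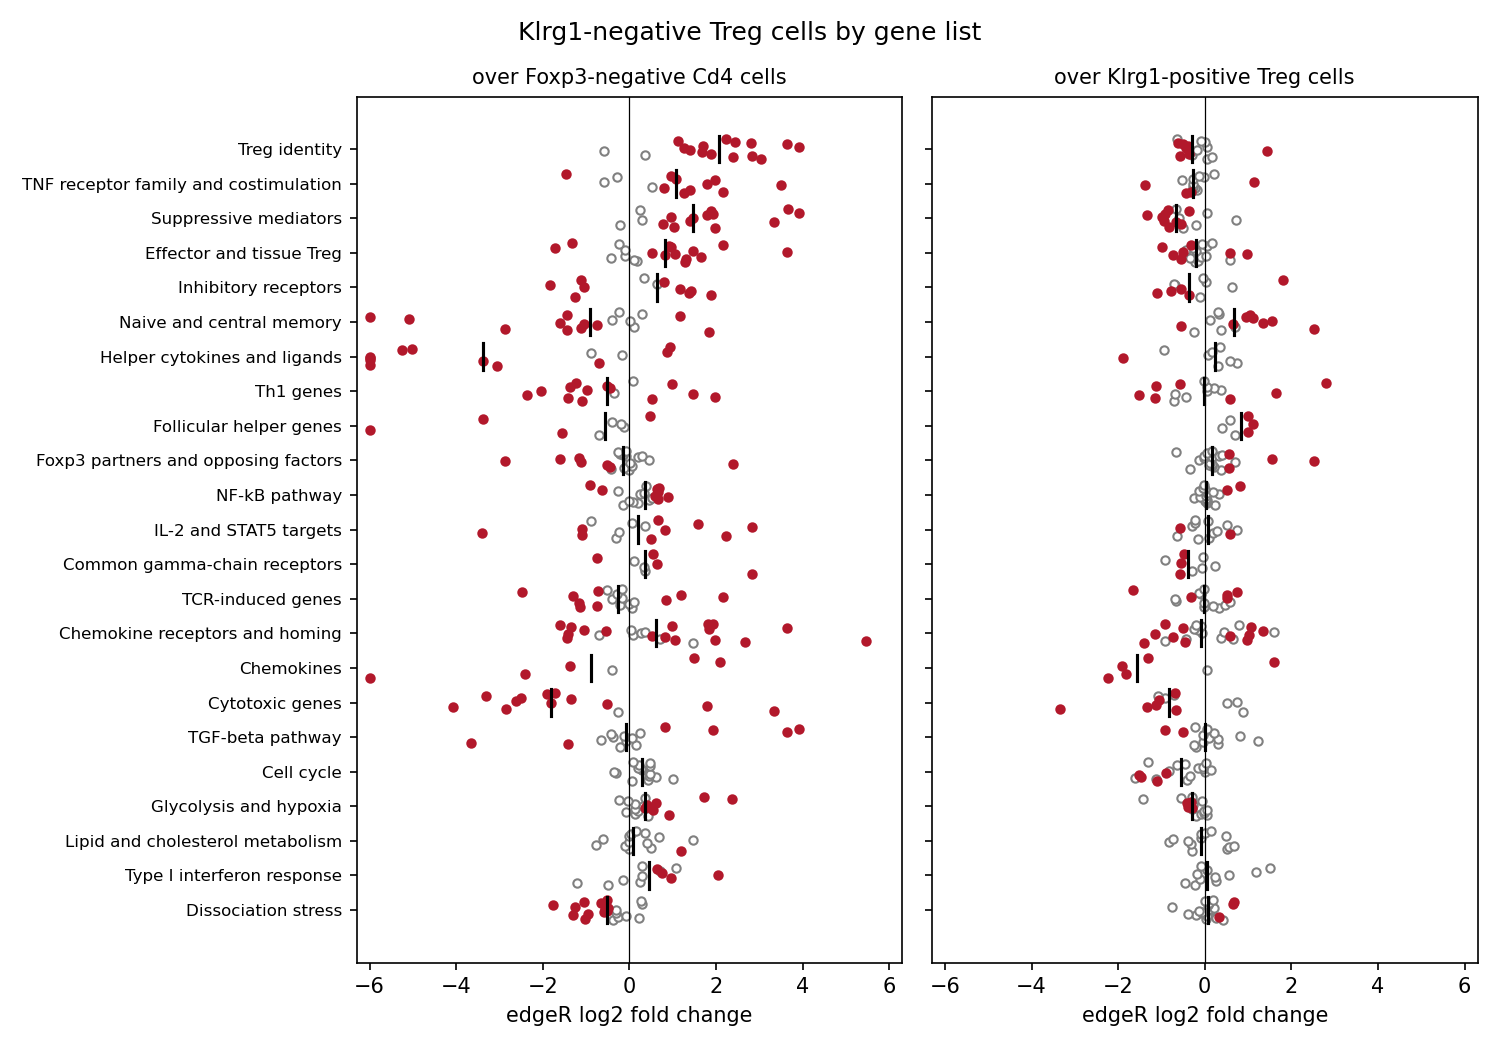
Log2 fold change (edgeR) of each measured gene of 23 lists in Klrg1-negative Treg cells, over Foxp3-negative Cd4 cells (left) and over Klrg1-positive Treg cells (right); filled points have an adjusted p under 0.05, bars are list medians and values past 6 are drawn at 6. The Treg identity list is centred at 2.06 on the left and at -0.305 on the right.

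Ranks outside the lists are over called genes that moved the same way in both libraries, reached 20 CPM in a class and had at most 25% of UMIs of the higher class in 1 cell, with receptor segments left out. Lyz2, with all its Treg UMIs in 1 cell, had a higher fold change (8.40) than any gene in these ranks. The highest among them was Flicr, a long non-coding RNA gene next to Foxp3, with 43.7 and 51.2 CPM in Treg cells and 0 and 0.755 CPM in Foxp3-negative cells (log2 fold change 6.55, adjusted p = 5.01e-20). Its log2 ratio of CPM, against 1 Foxp3-negative UMI, was 7.08 over both libraries, with an exact 95% Poisson interval of 4.55 to 12.41. Rln3, a relaxin peptide hormone gene, had 36.4 and 53.6 CPM, against 0 and 1.51 CPM. Dgat2, an enzyme of triglyceride synthesis, had 47.4 and 24.4 CPM, against 2.02 and 2.26 CPM. Cnih2, Rhod, Lgmn (the lysosomal protease legumain), Arnt2 and Rapsn followed, with log2 fold changes between 3.29 and 3.85. Each had values above both Foxp3-negative values in both libraries.

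The lowest was Ifitm1, an interferon-induced membrane gene, with 1.82 and 0 CPM in Klrg1-negative Treg cells and 291 and 312 CPM in Foxp3-negative cells (log2 fold change -8.57, adjusted p = 2.38e-92). The Treg total was 1 UMI, and the log2 ratio of CPM was -8.69 over both libraries, with an exact 95% Poisson interval of -13.99 to -6.21. Ifitm1 UMIs sat in 13 of 237 female and 23 of 219 male Foxp3-negative cells, a minority of those cells. Nmrk1, a kinase of NAD synthesis, had 3.64 and 4.87 CPM, against 125 and 121 CPM (log2 fold change -4.87, adjusted p = 1.03e-43). St8sia1, a sialyltransferase of ganglioside synthesis, had 3.64 and 2.44 CPM, against 44.3 and 42.3 CPM. Dthd1 had 0 UMIs in the Treg cells and was at least 10.9-fold lower. Ntrk3 and Mctp2 were also among the 12 lowest.

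Klrg1-negative Treg cells had higher levels of 7 of 14 naive and central memory genes than Klrg1-positive Treg cells in edgeR, among them Tcf7, Bach2 and S1pr1. They had lower levels of 9 of 15 suppressive, 6 of 12 cytotoxic and 4 of 6 chemokine genes, among them Gzmb, Areg, Entpd1 and Ccl4. DESeq2 called none of the memory genes, and 2, 2 and 1 of the other lists as lower. Without the library block edgeR called 2 memory genes higher, and 2 genes of each other list lower. In edgeR 144 of 7991 genes tested were higher in Klrg1-negative cells (1.8%) and 162 were lower (2.03%), or 128 (1.6%) and 133 (1.66%) with the same direction in both libraries and at most 25% of UMIs in 1 cell. DESeq2 called 3 higher (Emb, Ms4a4b, Ms4a6b) and 14 lower. The cells compared came from the same 2 libraries, and the Klrg1-positive cells were the deeper; among cells of 3000 to 12000 UMIs edgeR called 95 higher and 104 lower.

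Of 14 naive and central memory genes, 7 were higher in Klrg1-negative cells and 1 was lower. Tcf7 had 41.9 and 47.5 CPM in Klrg1-negative and 9.47 and 6.32 CPM in Klrg1-positive Treg cells (log2 fold change 2.53, adjusted p = 1.38e-08). Both stood below the Foxp3-negative values given above. Bach2 had 122 and 46.3 CPM, against 29.5 and 23.7 CPM (log2 fold change 1.55, adjusted p = 1.30e-06). S1pr1, the receptor for exit from tissue, had 142 and 105 CPM, against 51.5 and 45.0 CPM (log2 fold change 1.34, adjusted p = 2.59e-07). Klf2, which drives S1pr1, had 346 and 569 CPM, against 214 and 376 CPM (log2 fold change 0.64, adjusted p = 2.39e-04), where the female Klrg1-negative value was below the male Klrg1-positive value. Klf3 and Il6ra rose too. Il7r was the member that was lower, at 297 and 415 CPM, against 489 and 552 CPM.

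Of 16 Treg identity genes 6 were lower in Klrg1-negative cells and 1 was higher. DESeq2 called none of the 16 in either direction, and edgeR without the block 1, as lower. Il2ra had 547 and 412 CPM in Klrg1-negative and 759 and 659.8 CPM in Klrg1-positive cells (log2 fold change -0.58, adjusted p = 1.31e-04), and Tnfrsf4 had 2316 and 2531 CPM, against 3261 and 3293 CPM (log2 fold change -0.43, adjusted p = 4.61e-06). Nrp1, the semaphorin co-receptor that marks many thymus-derived Treg cells, was the member that was higher (51.0 and 32.9 CPM, against 17.9 and 12.6 CPM, log2 fold change 1.44, adjusted p = 0.0016). Ikzf2 had 1040.3 and 1040.3 CPM, against 946 and 1050.1 CPM, and Lrrc32 had 133 and 102 CPM, against 113 and 112 CPM; neither passed the test.

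Suppressive mediators were lower in 9 of 15 measured members and higher in none. Gzmb had 2403 and 2356 CPM in Klrg1-negative and 3987 and 3562 CPM in Klrg1-positive cells (log2 fold change -0.66, adjusted p = 1.29e-14). Entpd1 had 71.1 and 62.1 CPM, against 115 and 138 CPM (log2 fold change -0.95, adjusted p = 6.76e-04). Itgb8 had 38.3 and 69.4 CPM, against 112 and 99.6 CPM (log2 fold change -0.91, adjusted p = 0.00303). In these 3 genes both Klrg1-negative values lay below both Klrg1-positive values. Areg was also lower, at 169 and 741 CPM, against 687 and 923 CPM, with a male Klrg1-negative value above the female Klrg1-positive value. Penk, which encodes the precursor of enkephalins, had 100.2 and 317 CPM, against 396 and 889 CPM (log2 fold change -1.67, adjusted p = 8.00e-29), and its UMIs came from 7 of 82 female and 17 of 124 male Klrg1-negative cells.

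Inhibitory receptors had 4 of 11 members lower and 1 higher, or 1 lower and none higher in DESeq2 and without the block. Lag3 had 302 and 463 CPM in Klrg1-negative and 745 and 900.0 CPM in Klrg1-positive cells (log2 fold change -1.11, adjusted p = 4.45e-17), and was also called by DESeq2. Tigit had 703 and 792 CPM, against 1056 and 1131 CPM (log2 fold change -0.55, adjusted p = 2.24e-05). Cd96 was the higher member (1.80). Of 12 cytotoxic genes, 6 were lower and none higher, among them Prf1 (log2 fold change -1.34) and Nkg7 (268 and 364 CPM, against 708 and 683 CPM, log2 fold change -1.13, adjusted p = 7.04e-16). Of 6 chemokines 4 were lower (Ccl3, Ccl4, Xcl1 and Cxcl2), of which Xcl1 and Cxcl2 went opposite ways in the libraries, with Ccl4 at 100.2 and 127 CPM, against 348 and 451 CPM (log2 fold change -1.81, adjusted p = 1.37e-25). Cxcl10, which draws Cxcr3-bearing cells, was the member that was higher (60.1 and 69.4 CPM, against 15.8 and 26.1 CPM). Of 18 cell cycle genes 4 were lower, Mki67, Ccnb2, Birc5 and Ube2c, and none was higher; without cells that held a UMI of another cell type, in cells of 3000 to 12000 UMIs, in DESeq2 and without the block, none was called. Glycolysis genes were lower in 4 of 18 (0 in DESeq2 and without the block), by 0.42 for Pkm.

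Receptors for chemokines and tissue divided: 5 of 23 were higher and 6 lower in Klrg1-negative cells in edgeR. DESeq2 called none of these 23 genes, and edgeR without the block called 2 higher and 1 lower. Cxcr4, Ccr4, Cxcr3, S1pr1 and Itgb1 were higher, by 1.02, 0.97, 0.58, 1.34 and 1.08. Ccr8 had 186 and 291 CPM in Klrg1-negative and 374 and 421 CPM in Klrg1-positive cells (log2 fold change -0.74, adjusted p = 3.55e-05), and Cxcr6 had 92.9 and 84.0 CPM, against 199.9 and 193 CPM (log2 fold change -1.15, adjusted p = 2.33e-07). Il18r1, the IL-18 receptor, had 128 and 99.9 CPM, against 33.7 and 37.1 CPM (log2 fold change 1.65, adjusted p = 7.83e-10). Tox, a factor of chronically stimulated T cells, had 329.8 and 205 CPM, against 125 and 131 CPM (log2 fold change 1.01, adjusted p = 2.18e-07). In Il18r1 and Tox both Klrg1-negative values lay above both Klrg1-positive values.

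**Figure D4:**
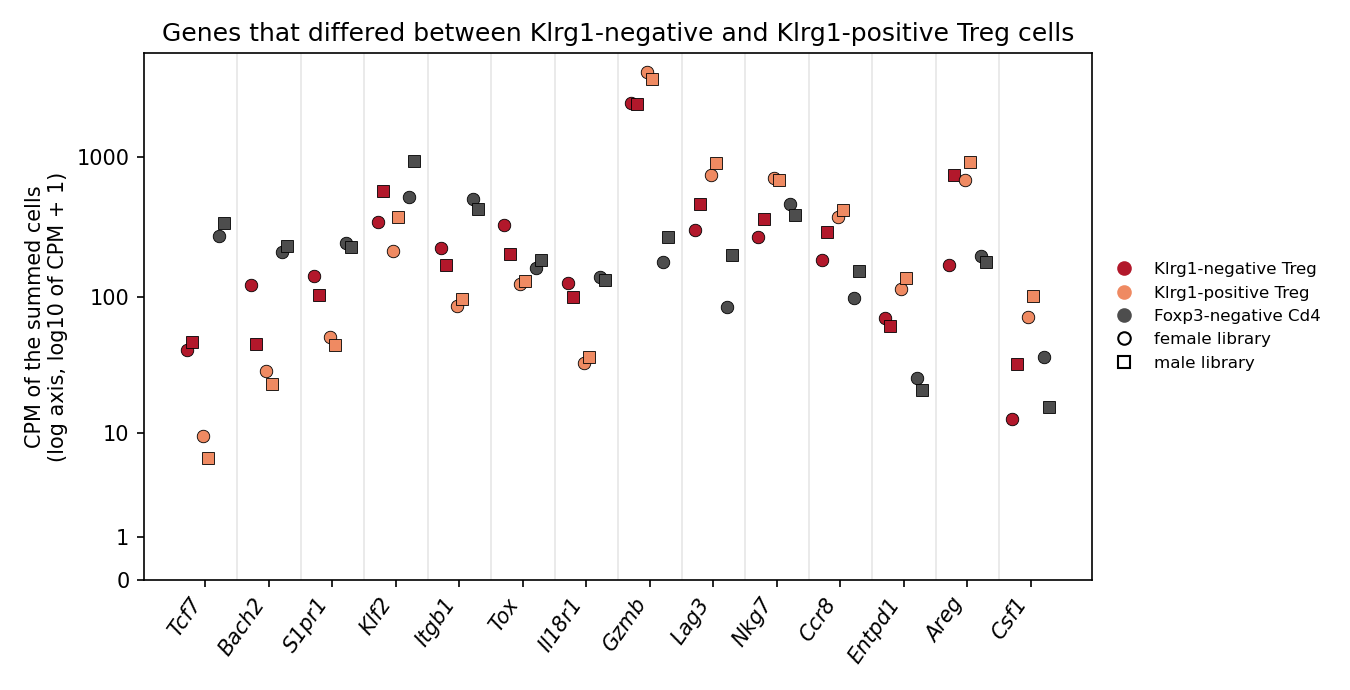
Summed level (CPM, log10 of CPM + 1) of 14 genes called between Klrg1-negative and Klrg1-positive Treg cells, with Foxp3-negative Cd4 cells beside them, 1 point per library (circles female, squares male). For Tcf7, Bach2, S1pr1 and Itgb1 Klrg1-negative cells lie above Klrg1-positive and below Foxp3-negative cells, and Areg is spread by library among Klrg1-negative cells.

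By the same ranks, Clec2i, Rflnb, Aff3, Pdlim1 and Ssbp2 were the highest in Klrg1-negative over Klrg1-positive cells. Clec2i, a C-type lectin gene, had 29.2 and 18.3 CPM, against 1.05 and 1.58 CPM (log2 fold change 3.95, adjusted p = 8.77e-06), and Rflnb, a filamin-binding protein gene, had 56.5 and 23.1 CPM, against 2.10 and 3.95 CPM. St6gal1, Lrig1, Cd96 and Il18r1 completed the 10 highest with Tcf7. Lowest under the limit of 25% in 1 cell was Def8, with 3.64 and 3.65 CPM, against 13.7 and 74.3 CPM (log2 fold change -3.69, adjusted p = 2.14e-11); most of its Klrg1-positive UMIs were male. Csf1, the macrophage growth factor, had 12.8 and 32.9 CPM, against 72.6 and 103 CPM (log2 fold change -1.90, adjusted p = 3.03e-09). Ltb4r1, the leukotriene B4 receptor, had 27.3 and 25.6 CPM, against 84.2 and 93.2 CPM, and Il12rb2 had 38.3 and 12.2 CPM, against 70.5 and 63.2 CPM. Mt3, Birc5 and Ccnb2 were lower too.

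MHC class II genes, which antigen-presenting cells express, were lower too. H2-Aa, past the 1-cell limit with 30.5% of its Klrg1-positive UMIs in 1 cell, had 1.82 and 13.4 CPM in Klrg1-negative and 339 and 313 CPM in Klrg1-positive cells (log2 fold change -5.20, adjusted p = 4.22e-75). H2-Eb1, with 29.2% in 1 cell, had 10.9 and 18.3 CPM, against 279.8 and 255 CPM (log2 fold change -4.11, adjusted p = 1.85e-54). DESeq2 also called both, and both fold changes were below that of Def8. H2-Ab1 was among the 10 lowest, at 5.47 and 25.6 CPM in Klrg1-negative and 174 and 216 CPM in Klrg1-positive cells (log2 fold change -3.53, adjusted p = 1.72e-37). Of its Klrg1-positive UMIs, 147 of 165 (female) and 203 of 273 (male) were in 3 cells of their library. For H2-Aa the 3 cells with the most UMIs held 321 of 322 (female) and 389 of 396 (male). For H2-Eb1 they held 253 of 266 and 299 of 323. H2-Aa UMIs were seen in only 4 of 110 female and 7 of 167 male Klrg1-positive cells. The 5 dendritic and class II genes summed to 11 and 47 UMIs in Klrg1-negative cells (Flt3 at 0) and to 753 and 992 UMIs in Klrg1-positive cells (Flt3 and Xcr1 at 0). Without the cells that held a UMI of a myeloid, B cell, neutrophil, fibroblast or epithelial marker the log2 fold change of H2-Ab1 was -2.03. That filter did not use the class II genes, so cells with their UMIs could stay. In cells of 3000 to 12000 UMIs the log2 fold change of H2-Ab1 was -1.45.

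Klrg1-negative Treg cells also varied among themselves, as Gzmb shows. The median Gzmb level was 7.15 per 10000 UMIs in female and 15.1 in male cells. Its lower and upper quartiles were 0 and 30.5 per 10000 in female and 1.45 and 33.7 in male cells. For Tnfrsf4 the quartiles were 10.5 and 28.2 (female cells) and 10.1 and 31.9 (male cells) per 10000. Gzmb UMIs were seen in 50 of 82 female (61.0%) and 96 of 124 male cells (77.4%), against 19.4% and 20.5% of Foxp3-negative cells of similar depth. Summed Gzmb was lower where an S1pr1 or Tcf7 UMI was seen; not every memory gene is given here. The 37 female cells with an S1pr1 UMI had 1632 CPM of Gzmb and the 45 without had 3285 CPM; in the male library the 33 with and 91 without had 1589 and 2790.3 CPM. For Tcf7 the values were 178 CPM in 14 cells with and 2907 CPM in 68 cells without a UMI (female), and 1460.4 CPM in 20 and 2652 CPM in 104 cells (male). Cells with an S1pr1 or Tcf7 UMI were deeper, for S1pr1 at a median of 7172 against 5227 UMIs (female) and 8164 against 5194 UMIs (male). These gates were chosen after the values were seen and carry no test.

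Only 17 of the 206 cells, 9 female and 8 male, had no Ikzf2 UMI. Between the 189 cells with and the 17 without, edgeR called 16 of 6728 genes higher (0.238%) and 6 lower (0.0892%), and DESeq2 called 0 and 1. Gzmb had 2508 and 2475 CPM in cells with an Ikzf2 UMI, against 1177 and 25.1 CPM in cells without (log2 fold change 2.32, adjusted p = 4.24e-20). The male value without Ikzf2 was 1 UMI. Vim, an intermediate filament of activated T cells, had 2461 and 2769 CPM, against 1084 and 577 CPM. Ccl5 was higher as well, against a total of 1 UMI, as were Cd74 and Filip1l. Without TMM scaling 59.1% of the calls were higher, in place of 72.7%. Cells without an Ikzf2 UMI had fewer UMIs per cell on average in both libraries. A cell without Ikzf2 RNA and one whose Ikzf2 RNA was not sampled cannot be told apart.

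Female and male Klrg1-negative Treg cells came from 1 library each, so sex and library cannot be told apart and no test was made. Of 6729 genes measured, 573 were at least 1.5-fold higher (8.52%) and 755 at least 1.5-fold lower (11.2%) in the female library. Areg, Il1r2 and some stress genes were lower in the female library, and cell cycle genes and Bach2 were higher. Areg had 169 CPM in the female library and 741 CPM in the male library (log2 ratio -2.13, interval -2.46 to -1.81; intervals are exact 95% ratios of Poisson counts and cover counting error only). UMIs of Areg came from 27 of 82 female and 57 of 124 male cells. Without the cell with the most Areg in each library the values were 144 and 569 CPM. In Klrg1-positive cells Areg had 687 CPM in the female library and 923 CPM in the male library (log2 ratio -0.43, interval -0.57 to -0.29), and in Foxp3-negative cells 198 CPM in the female library and 180.4 CPM in the male library, or 52.2 and 112 CPM without the cell with the most Areg in each library, which turned the direction.

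Il1r2 had 115 CPM in the female library and 353 CPM in the male library in Klrg1-negative cells (log2 ratio -1.62, interval -2.04 to -1.22), and 404 CPM in the female library and 414 CPM in the male library in Klrg1-positive cells (log2 ratio -0.04, interval -0.23 to 0.16). Hspa1a, a heat shock chaperone, had 40.1 CPM in the female library and 145 CPM in the male library (log2 ratio -1.85, interval -2.58 to -1.19), with UMIs in 3 female and 9 male cells. Of its 22 female UMIs, 13 were in 1 cell. In Klrg1-positive cells Hspa1a was not lower in the female library, with 115 CPM there and 102 CPM in the male library. Jun, the AP-1 factor, had 169 CPM in the female library and 368 CPM in the male library (log2 ratio -1.12, interval -1.47 to -0.78), and Klrg1-positive cells had a like ratio (-1.03). Pdcd1 had 65.6 CPM in the female library and 136 CPM in the male library (log2 ratio -1.06, interval -1.64 to -0.50). Bach2 was higher in the female library, with 122 CPM in the female library and 46.3 CPM in the male library (log2 ratio 1.40, interval 0.80 to 2.01); Klrg1-positive cells had a ratio of 0.31, with an interval that held 0. The differences between the classes were not tested.

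Of 12 cell cycle genes measured, 8 were at least 1.5-fold higher in female cells and none was lower. Top2a, which untangles replicated DNA, had 80.2 CPM in the female library and 29.2 CPM in the male library (log2 ratio 1.46, interval 0.71 to 2.24), from 44 and 24 UMIs, and Ube2c had 60.1 CPM in the female library and 14.6 CPM in the male library (log2 ratio 2.04, interval 1.05 to 3.13). The ratios of Top2a in Klrg1-positive and in Foxp3-negative cells were 0.81 and 0.79. Of 20 dissociation genes, 5 were lower and 1 higher in the female library. Of 16 Treg identity genes, 2 were higher and none lower, and Ikzf2 had 1040.3 CPM in the female library and 1040.3 CPM in the male library (log2 ratio 0.00, interval -0.16 to 0.15). Gzmb and Ctla4 were close as well, with log2 ratios of 0.03 and 0.01.

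By rank, the genes higher in the female library were Diaph3, Hk2, Tom1, Mbnl3, Hemk1, Insig1, Lrig1 and Zfp62. Insig1, which holds back cholesterol synthesis, had 53 female and 23 male UMIs (log2 ratio 1.79). Hk2, a hexokinase, had 34.6 CPM in the female library and 8.53 CPM in the male library (log2 ratio 2.02, interval 0.71 to 3.51). Those lower in the female library were Prickle1, Rpf2, Gar1, Pum3, Mkrn2, Dnaaf5, Pex7 and Sdhaf4, each with 1 to 3 female UMIs. Gar1, a subunit of the particles that pseudouridylate ribosomal RNA, had 3.64 CPM in the female library and 34.1 CPM in the male library (log2 ratio -3.23, interval -6.34 to -1.24). Rpf2, a factor of large ribosomal subunit assembly, had 1.82 CPM in the female library and 23.1 CPM in the male library (log2 ratio -3.67, interval -9.04 to -1.01).

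**Figure D5:**
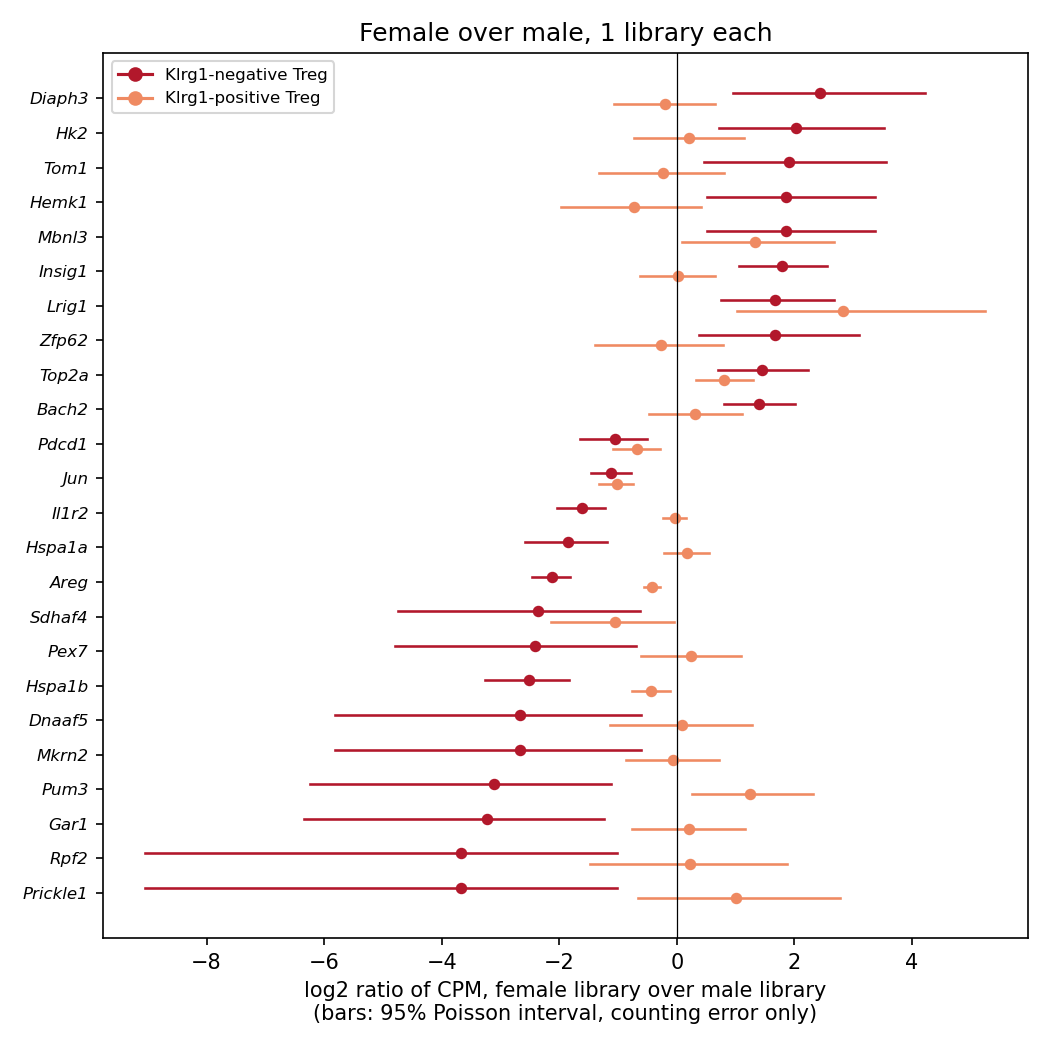
Log2 ratio of CPM, female over male library, of the 16 ranked genes and 8 further genes in Klrg1-negative (upper of each pair) and Klrg1-positive Treg cells; bars are exact 95% Poisson intervals, and there is 1 library per sex. Areg and Il1r2 lie at -2.13 and -1.62 in Klrg1-negative cells and nearer 0 in Klrg1-positive cells.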

How the data were processed

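Single-cell 5′ RNA libraries were deposited as raw UMI counts per gene and barcode, 1 matrix per sex. The authors made these counts with Cell Ranger (version 7.0.1 according to the headers) on genome build GRCm38, per the submitters' processing notes, which also name Seurat 5. No cell annotation was used. The cells were those that the rule in the report gives. No doublet caller was run. In its place stood the limits on Cd8 and total UMIs and a repeat without cells that held a UMI of another cell type. For that repeat the other cell types were myeloid, B, neutrophil, fibroblast and epithelial or tumour cells. Class II, natural killer, gamma delta T and endothelial markers were not used in it. UMIs were summed per library and class. Genes entered a test with at least 10 CPM in a class and 20 UMIs in all. Foxp3, Klrg1, Cd4, Cd3e, Cd8a and Cd8b1, which define the classes, were not tested. Mitochondrially encoded genes, whose summed share the rule limits, stayed among the genes tested.

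Comparisons of Klrg1-negative Treg cells used edgeR 4.0.16 (R 4.3.3; glmQLFit and glmQLFTest, TMM, library as block, Benjamini-Hochberg over all genes tested). The block pairs the cell classes of 1 library and came from the design. The 4 sums left 1 residual degree of freedom, and edgeR's prior degrees of freedom were infinite. Each gene's own spread between libraries therefore had no weight, and a gene carried by 1 cell can pass, as Lyz2 did. The p-values rest on that spread, pooled over genes after the block, and with 1 library per sex they do not measure variation between animals. DESeq2 1.42.0 was the other tool. Female against male has 1 library each and no test; ratios carry exact Poisson intervals. A class at 0 was set to 3 UMIs over both libraries for a bound, and the other class was taken as counted.

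Named genes were the label's 5 markers, up to 4 genes per list with the largest fold change among those called, moving alike in both libraries and reaching 20 CPM, and the highest and lowest by rank (12 and 12, 10 and 10, 5 and 5, 8 and 8), with at most 25% of UMIs in 1 cell and, between sexes, an interval at least 1.25-fold from 1; other genes named from the lists were chosen after their values were seen. The members and gene lists were chosen with earlier results of these data known. Alternatives were DESeq2, no TMM, no filter, no block, depth-matched and thinned cells (2000 UMIs), stricter cells (at most 5% mitochondrial UMIs, at least 1000 genes), other UMI limits for Foxp3, Cd4 and Klrg1, and each library alone. A cap of 25000 UMIs on Foxp3-negative cells, 1 of which had 54719, was added after seeing the data. Some genes of the lists count in the totals but are not reported here by name.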

Additional observations from a re-analysis of the deposited data

Results flagged for a closer look

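Hemk1, a methyltransferase gene, was higher in the female than in the male library of Klrg1-negative Treg cells, with 31.0 CPM in the female library and 8.53 CPM in the male library (log2 ratio 1.86, interval 0.52 to 3.37), but lower in the female library of Klrg1-positive Treg cells, where the log2 ratio was -0.72464. It stands out because the classes of the same libraries moved opposite ways; the difference was not tested, and the Klrg1-positive interval, -1.97 to 0.41, held 0. Pum3, a nucleolar RNA-binding protein gene, had 3.64 CPM in the female library and 31.7 CPM in the male library (log2 ratio -3.12, interval -6.24 to -1.12) in Klrg1-negative cells and a log2 ratio of 1.2494 in Klrg1-positive cells (interval 0.25 to 2.31). This difference was not tested either, and the female Klrg1-negative value was 2 UMIs.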

How the results depend on the processing

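Against Foxp3-negative Cd4 cells (672 higher, 640 lower), DESeq2 called 120 and 147, edgeR with no replicate block 407 and 394, cells of 3000 to 12000 UMIs 403 and 374, and cells thinned to 2000 UMIs 309 and 296. Against Klrg1-positive cells (144 and 162), the same settings gave 3 and 14, 15 and 25 (no replicate block), 95 and 104, and 31 and 66; no filter gave 95 higher, and at least 2 Klrg1 UMIs gave 73 and 95. For the Ikzf2 gate (16 and 6), DESeq2 gave 0 and 1, with 36 genes at an unadjusted p under 0.05, no block 3 and 1, thinned cells 8 and 1, no filter 27 higher, and cells without a UMI of another type 5 and 3. Between sexes (573 higher, 755 lower), no filter gave 2903 and 2523, thinned cells 363 and 442, and a 2-fold limit 168 and 253. The block pairs classes of 1 library; without it 78 of 88 named genes of the first comparison and 10 of 20 of the second still passed, and under DESeq2 48 and 3. Named genes kept their direction under every alternative that gave them a value, except Cxcl2 against Foxp3-negative cells, which was 1.49 and became -0.37 without cells that held a UMI of another type. All 49 female UMIs of Cxcl2 were in 2 Klrg1-negative cells. Each library alone gave values without a test, and the naming rule asked for 1 direction in both. The first comparison moved by more than the SD between libraries in 26 of 88 genes without the female and 33 without the male library. These counts do not measure disagreement between libraries, because the library ratios were not TMM-scaled and the fold changes were. Tnfrsf9, for example, had library log2 ratios of 2.27 (female) and 2.26 (male), against a log2 fold change of 2.17. The cap on Foxp3-negative cells, added after seeing the data, gave 587 and 579. Genes under 10 CPM in each class were not tested, and 206 cells limit the precision.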

Other observations

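Some gene groups outside the lists also moved together in Klrg1-negative Treg cells. Of 81 cytosolic ribosomal protein genes measured, 73 were lower than in Foxp3-negative Cd4 cells and 1 was higher in edgeR, with a median log2 fold change of -0.537, and 80 of 81 values were below 0. DESeq2 called 55 of them. Without TMM scaling all values shift up by 0.10, less than this median. Against Klrg1-positive cells 3 of the 81 were higher and none was lower (0 in DESeq2), with a median of 0.144. The rule limits mitochondrial UMIs to 10% in every class, so the mitochondrially encoded genes are given as a description only. All 13 had values below 0 against Foxp3-negative cells (median log2 fold change -0.504) and above 0 against Klrg1-positive cells (median 0.339). Both groups were picked after their values were seen.

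V segments of the T cell receptor β chain differed as well. Of 19 Trbv genes measured, 10 were lower and 1 was higher in Klrg1-negative Treg than in Foxp3-negative Cd4 cells in edgeR, and DESeq2 called 4. Trbv16 had 47.4 and 30.5 CPM in Treg cells and 116 and 168 CPM in Foxp3-negative cells (log2 fold change -2.02, adjusted p = 3.60e-19). Trbv13-1 had 51.0 and 40.2 CPM, against 97.4 and 187 CPM (log2 fold change -1.78, adjusted p = 1.46e-15). Trbv17 was the higher one, with 29.2 and 49.9 CPM, against 0 and 15.1 CPM, and 40.4% of its Treg UMIs in 1 cell. Usage by clone was not analysed here.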
